A study of Mus musculus with 6 samples.

Results

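Genes that mark mouse embryonic stem cells (ESCs) were read on 6 arrays: the developmental pluripotency-associated genes Dppa2, Dppa3, Dppa4 and Dppa5a, the secreted ligand Gdf3, the transcription factor Zscan10, the adhesion molecule Pecam1 and the secreted phosphoprotein Spp1. A probe set was taken where its only gene symbol was one of these 8 names, which gave 9 probe sets for 7 genes among the 34945 probe sets and 18193 genes that carried 1 symbol. Dppa2 and Gdf3 had 2 probe sets each and the other 5 genes had 1, and Spp1 was not analysed here because no probe set bore its name alone. Of the 7 genes, 6 exceeded the low-signal limit, an intensity of 37.2, on at least 1 array and were tested, while Pecam1 lay under it on all 6 arrays.

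The arrays come from A2.snail cells, 1 ESC line with a Snail transgene that doxycycline (dox) switches on. All cultures were grown as embryoid bodies in serum with DKK1, a secreted inhibitor of Wnt signaling, after 1 passage without the irradiated embryonic fibroblasts on which the line was kept. The DKK cultures stayed without dox, and the DKK + dox cultures received it at day 2 to 250 ng/mL. RNA was taken 6, 12 and 24 hours after that point, which is day 2.25, day 2.5 and day 3 of the differentiation, for 1 array per condition and time. The arrays include no culture that had dox and lacked the transgene, so effects of Snail and of dox itself cannot be told apart. The probe set of Snai1, the gene of Snail, read between 10.9 and 32.9 and stayed under the low-signal limit on all 6 arrays, so it does not check the labels. Hprt, picked out after its values were seen, is the locus that carries the inducible cassette in the parent A2lox line. It read 405, 330 and 331 in DKK against 603, 1065 and 2293 in DKK + dox at 6, 12 and 24 hours, higher on the array labelled DKK + dox at each time.

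These genes are used as markers because their transcripts are abundant in ESCs and in the inner cell mass and are lost as cells leave that state. Some of them, such as Dppa3, go off on the way to the post-implantation epiblast and come on again in primordial germ cells, while factors such as Pou5f1 (Oct4) and Sox2 remain expressed in the epiblast. The members act at different levels: Dppa2 and Dppa4 are chromatin proteins, Zscan10 is a DNA-binding factor, Dppa5a binds RNA, and Gdf3 signals between cells.

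In DKK cultures without dox, 5 of the 6 tested genes fell from 6 to 24 hours (Dppa2, Dppa3, Dppa4, Dppa5a and Gdf3), none rose, and Zscan10 did not pass. In the same test 12.8% of all 14755 genes fell and 12.2% rose. The fitted declines of the 5 genes ran from -0.62 for Dppa4 to -1.0 for Dppa5a in log2 units, and each of the 5 was lower at 12 than at 6 hours and lower again at 24 hours in both conditions, a pattern that 11.7% of all genes showed. The arrays read whole cultures, so fewer cells of a type and less RNA per cell cannot be told apart. Differences are on the scale log2(intensity + 20.6), which understates the change of low genes, and the test is limma fitted to all 6 arrays with the time points as a block and a dox difference in step with the hours. With 1 array per condition and time, its p-values measure only how far the 6 arrays depart from the model; the spread between replicate cultures is not in them.

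Dppa2 and Dppa4 encode nuclear proteins with a DNA-binding SAP domain that work as a pair on chromatin. The intensity of Dppa2 was 4633, 3880 and 2957 in DKK against 5039, 4275 and 3762 in DKK + dox at 6, 12 and 24 hours. It was higher with dox at each time, and both conditions ended below their 6 hour level. The 24 hour array held 63.8% of the 6 hour intensity in DKK and 74.6% in DKK + dox. In the fit Dppa2 fell by 0.66 in DKK (SE 0.05, adjusted p = 0.000331 from limma, 6 arrays).

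The second Dppa2 probe set was dimmer and had the same order of arrays, with 3063, 2467 and 1937 in DKK against 3553, 2823 and 2347 in DKK + dox. Fitted on its own, it fell by 0.75 in DKK (SE 0.07, adjusted p = 0.000561 from limma).

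Dppa4 read 4087, 3201 and 2533 in DKK against 3921, 2768 and 2575 in DKK + dox. Its conditions stayed close at 6 and 24 hours and were furthest apart at 12 hours, where DKK + dox was the lower. The 24 hour arrays held 62.0% of the 6 hour intensity in DKK and 65.7% in DKK + dox. Dppa4 fell in DKK by 0.62 in the fit (SE 0.08, adjusted p = 0.00207 from limma).

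Dppa5a, which encodes an RNA-binding protein with a KH domain and is also called Esg1, was among the brightest signals of the arrays. It read 14922, 10493 and 7606 in DKK against 14843, 11035 and 6998 in DKK + dox. At 6 hours only 14 probe sets in DKK and 15 in DKK + dox were brighter, of 45037, and at 24 hours 368 and 448 were. Whether signal this near the top of the scale was compressed was not tested. Dppa5a fell by 1.0 in DKK (SE 0.05, adjusted p = 4.68e-05 from limma), and the 24 hour arrays held 51.0% of the 6 hour intensity in DKK and 47.1% in DKK + dox. The RefSeq gene table lists 2 pseudogenes of the Dppa5 family, Dppa5b and Dppa5c, and 1 of Dppa3, so signal from near-identical copies is possible for both genes.

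Dppa3, also called Stella, encodes a protein that protects the maternal genome from demethylation in the zygote and marks primordial germ cells. It was the faintest of the tested genes, with 77.3, 47.3 and 32.4 in DKK against 61.9, 39.1 and 24.96 in DKK + dox, and both 24 hour arrays lay under the low-signal limit. Dppa3 fell by 0.76 in DKK (SE 0.22, adjusted p = 0.0397 from limma). With the arrays quantile normalized the adjusted p was 0.0505, and with the arrays centred on their medians it was 0.0514.

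Gdf3 is a ligand of the TGF-beta superfamily, related to Nodal. Its brighter probe set read 1802, 1482 and 931 in DKK against 1549, 825 and 441 in DKK + dox. Both conditions declined at each step and DKK + dox was lower at all 3 times. Gdf3 fell by 0.92 in DKK (SE 0.11, adjusted p = 0.00179 from limma), to 51.7% of the 6 hour intensity at 24 hours, against 28.4% in DKK + dox. The dimmer probe set gave 510, 327 and 243 in DKK against 437, 234 and 170 in DKK + dox.

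Zscan10, also called Zfp206, is a zinc finger factor with a SCAN domain that is expressed in ESCs. It read 1140, 1114 and 1243 in DKK against 1145, 1021 and 828 in DKK + dox. The DKK arrays stayed within a narrow range while the DKK + dox arrays stepped down. Its fitted change in DKK was 0.01 (SE 0.10, adjusted p = 0.932 from limma).

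Pecam1, the adhesion molecule CD31 of ESCs and endothelium, read 19.9, 14.0 and 7.64 in DKK against 20.1, 7.92 and 25.2 in DKK + dox. All 6 values lie under 37.2, so their order is not read here.

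**Figure D1:**
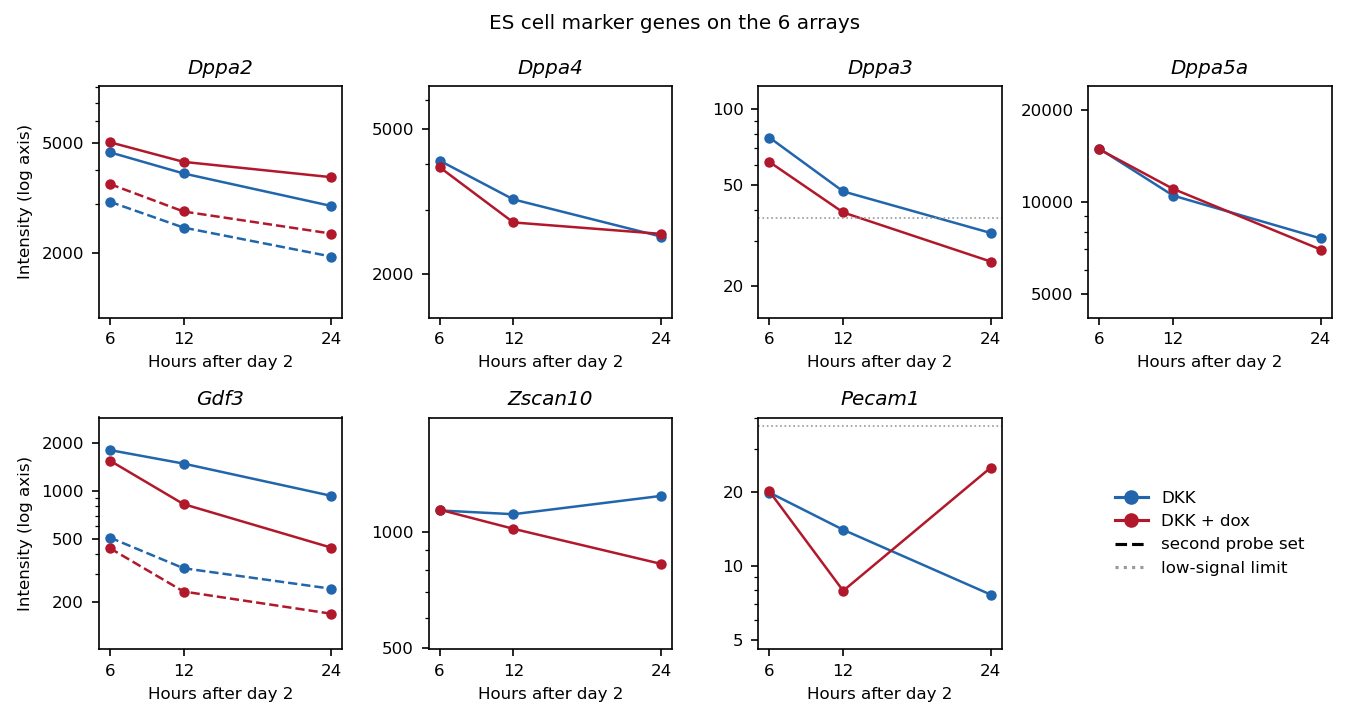
Intensity (log axis, a range of its own in each panel) of the 7 measured genes on each of the 6 arrays against hours after day 2, in blue for DKK and red for DKK + dox; each point is 1 array, dashed lines are second probe sets and the dotted line is the low-signal limit of 37.2. Dppa2, Dppa3, Dppa4, Dppa5a and Gdf3 step down in both conditions, the Gdf3 and Zscan10 conditions part by 24 hours, and Pecam1 stays under the limit.

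In the measured values these declines spanned both intervals, but the step from 6 to 12 hours was not tested and depended on the normalization. The median of the 6 tested genes in that step was -0.31 in DKK, and -0.10 with the arrays centred on their medians. Over all genes it was -0.08 and 0.12. From 12 to 24 hours the 6 genes had -0.37 and -0.39. In the reported fit from 12 to 24 hours in DKK, Dppa5a fell by 0.54 (SE 0.05, adjusted p = 0.0132 from limma). It was the only tested member to pass, where 0.163% of all genes fell and 0.00678% rose. Dppa2 was next, at -0.37 (SE 0.05, adjusted p = 0.0552 from limma), and the remaining 4 genes had fitted values between -0.48 for Gdf3 and 0.05 for Zscan10. Without the 6 hour pair no gene of the array passed this contrast (limma, 1752 genes at an unadjusted p under 0.05). Dppa5a kept its value of -0.54 there. Its adjusted p of 0.0963 from limma was the lowest of the array, shared with genes of smaller unadjusted p.

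On the scale with the offset, no tested member was lower by 2-fold or more between the 6 and 24 hour DKK arrays, where 4.26% of all genes were. In DKK + dox 2 of the 6 were (Dppa5a at -1.08 and Gdf3 at -1.77), against 3.72% of all genes. The count depends on the offset for the faint Dppa3, which had -0.89 in DKK and -0.86 in DKK + dox. Without an offset its 24 hour arrays held 41.9% and 40.3% of the 6 hour intensity. Dppa5a had -0.97 in DKK, so the threshold falls between like values. These are differences of 2 arrays and were not tested, nor was the difference between the conditions. The median over the 6 tested genes was -0.79 in DKK and -0.73 in DKK + dox, and over all 14755 genes it was -0.08 and -0.03. Centring the arrays on their medians moved the median of all genes in DKK to 0.10 and that of the 6 genes to -0.61. With time as a straight line in place of separate time points, none of the 5 declines passed, nor did any gene of the array (lowest adjusted p 0.0806, 2883 genes at an unadjusted p under 0.05 from limma).

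Other genes of the ESC state gave a scale for these declines. The list held 15 measured ES cell markers outside the members, such as Zfp42 (Rex1) and the Klf factors. Of these, 12 fell in DKK from 6 to 24 hours, none rose and 3 did not pass (Esrrb, Tbx3 and Nanog). Nanog was placed in this list, though the paper names it among the markers that epiblast-like stem cells keep. The median difference of the 15 genes between the 2 DKK arrays was -2.90, against -0.79 for the 6 members. Fbxo15, a gene of an F-box protein, had the largest drop of that list between the 6 and 24 hour DKK arrays (-3.73), with 908, 134 and 49.4 in DKK against 881, 140 and 73.4 in DKK + dox. It fell by 3.62 in the fit (SE 0.15), where Tcl1 had the larger value of -3.71, and most of its signal was gone by 12 hours, when Dppa5a still held 10493 of 14922. Whether the lists differ was not tested.

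Pluripotency genes that the epiblast keeps had another course. Of 10 such genes, among them Pou5f1 and Sox2, 2 rose in DKK, 2 fell and 6 did not pass, with a median of 0.01 between the 6 and 24 hour arrays. Foxd3, a forkhead factor and the named gene of this list, read 433, 480 and 607 in DKK and rose by 0.60 in the fit (SE 0.13, adjusted p = 0.0131 from limma). Of 9 genes of the epiblast itself, 8 rose and 1 fell. Fgf5, a growth factor that marks this tissue, read 354, 1244 and 1821 in DKK and rose by 3.21 (SE 0.55, adjusted p = 0.00608 from limma).

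Germ cell genes were listed because Dppa3 also marks that lineage. Of 12 tested, 6 fell in DKK, 2 rose and 4 did not pass, and the median between the 6 and 24 hour arrays was -0.70. Ifitm1, a membrane protein of early germ cells, read 1752, 998 and 637 in DKK and fell by 1.41 (SE 0.09, adjusted p = 0.000132 from limma). Genes of the 2-cell stage, which Dppa2 and Dppa4 help to switch on, were mostly unread: 4 of 9 listed genes had a probe set and 2 of these exceeded the low-signal limit, while Tcstv3 read 14.3 or less on all 6 arrays. Usp17la, a ubiquitin peptidase gene, was one of them, with 61.4, 23.7 and 18.7 in DKK against 76.4, 28.7 and 13.9 in DKK + dox.

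**Figure D2:**
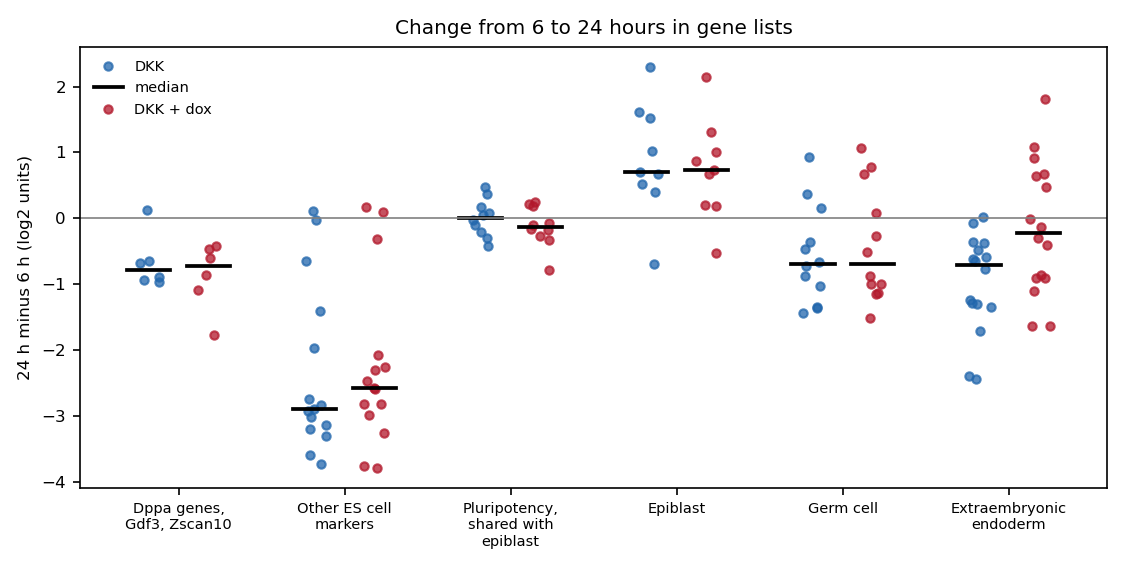
Differences between the 24 and 6 hour arrays (log2 units of intensity + 20.6) for the tested genes of 6 lists, each point 1 gene, blue in DKK and red in DKK + dox, with a black bar at the list's median. The medians in DKK are -0.79 for the Dppa genes, Gdf3 and Zscan10, -2.90 for other ES cell markers, 0.01 for pluripotency genes shared with the epiblast, 0.70 for epiblast genes, -0.70 for germ cell genes and -0.71 for extraembryonic endoderm.

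With dox-induced Snail, the 6 tested genes went different ways: Dppa2 rose, Gdf3 and Zscan10 fell, and Dppa3, Dppa4 and Dppa5a did not pass. Over all genes 8.32% rose and 6.38% fell in this test. Each fitted difference is the value at 24 hours of DKK + dox minus DKK, under a difference taken as proportional to the hours, and it can exceed the measured one where much of the change came earlier. The comparison uses the same DKK arrays as the time course, so the pair are not independent.

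Gdf3 had the largest dox difference of the members. DKK + dox stood below DKK by -0.22, -0.83 and -1.05 at 6, 12 and 24 hours, and at 24 hours it held 47.3% of the DKK intensity. Gdf3 fell by 1.15 in the fit (SE 0.13, adjusted p = 0.00255 from limma, 6 arrays), and it was the only tested member at least 2-fold lower at 24 hours, a change that 2.2% of all genes showed. Its dimmer probe set was lower too, by -0.21, -0.45 and -0.47, and fitted on its own fell by 0.57 (SE 0.15, adjusted p = 0.0456 from limma). At 24 hours that probe set held 69.7% of its DKK intensity, so the size of the change depended on the probe set, and with the mean of both the 24 hour difference was under 2-fold.

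Zscan10 fell by 0.48 in the fit (SE 0.11, adjusted p = 0.0275 from limma). The measured differences were 0.01, -0.12 and -0.58, with the largest on the 24 hour pair, where DKK + dox held 66.6% of the DKK intensity. Without the 24 hour pair the fitted value was -0.19 (adjusted p = 0.614 from limma), and without the 6 hour pair it was -0.51 (adjusted p = 0.0527 from limma).

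Snail is a zinc finger repressor that binds the E-box CACCTG. The bases upstream of Zscan10 are shown because it is the member with a dox difference whose promoter stood in the RefSeq promoter table used here, which matched 2 of the 8 genes, Zscan10 and Spp1. The 250 bases before its annotated start lie at chr17:23600576-23600825 of GRCm38.p6, plus strand, with ACCTG, the last 5 bases of that E-box, in capitals.
Zscan10 promoter: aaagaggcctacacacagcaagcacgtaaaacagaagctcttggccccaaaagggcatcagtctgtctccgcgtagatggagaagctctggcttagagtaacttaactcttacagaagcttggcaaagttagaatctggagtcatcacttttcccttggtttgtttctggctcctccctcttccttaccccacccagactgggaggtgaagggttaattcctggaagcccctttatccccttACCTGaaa
CACCTG was not in this window on either strand (its reverse complement is CAGGTG), and it was in 17.2% of the 32851 promoter windows of the same length. The shorter ACCTG, which every CACCTG also holds, occurred 1 time on the plus strand and began 8 bases before the start. On either strand (reverse complement CAGGT) it was in 44.1% of windows.

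Dppa2 was the member that rose. Its brighter probe set was higher with dox by 0.12, 0.14 and 0.34 at the 3 times, and its dimmer one by 0.21, 0.19 and 0.27. At 24 hours DKK + dox held 127% and 121% of the DKK intensity. The fitted rise was 0.34 (SE 0.06, adjusted p = 0.0110 from limma) for the first and 0.32 (SE 0.08, adjusted p = 0.0405 from limma) for the second. Of the 6 tested members only Dppa2 was higher at all 3 times, a pattern of 21.5% of all genes, while Dppa3 and Gdf3 were lower at all 3, a pattern of 21.9%. Dppa2 nevertheless declined with time in both conditions, so the rise is relative to DKK at the same hour. The call was lost without the 24 hour pair (0.32, adjusted p = 0.161 from limma) and with time as a straight line (adjusted p = 0.111 from limma).

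Dppa4, the partner of Dppa2, had differences of -0.06, -0.21 and 0.02 and a fitted value of -0.07 (SE 0.09, adjusted p = 0.660 from limma). The dox difference of Dppa2 exceeded that of Dppa4 by 0.18, 0.35 and 0.32 in log2 units at 6, 12 and 24 hours. Whether the dox effects on the pair differ was not tested.

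Dppa5a had differences of -0.01, 0.07 and -0.12 and a fitted value of -0.07 (SE 0.06, adjusted p = 0.499 from limma). Dppa3 was lower by -0.25, -0.19 and -0.22 at signals close to the low-signal limit, with a fitted value of -0.28 (SE 0.24, adjusted p = 0.505 from limma). A value that misses the threshold does not show that these genes were alike in both conditions, and the SE of Dppa3 leaves room for a change as large as that of Zscan10.

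The calls with dox rest on the form of the trend. With the dox difference kept equal at all 3 times none of the 3 members passed, and neither did any gene of the array (lowest adjusted p 0.0516, 2927 genes at an unadjusted p under 0.05 from limma); without the intensity trend in the variances none of the 3 passed either.

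**Figure D3:**
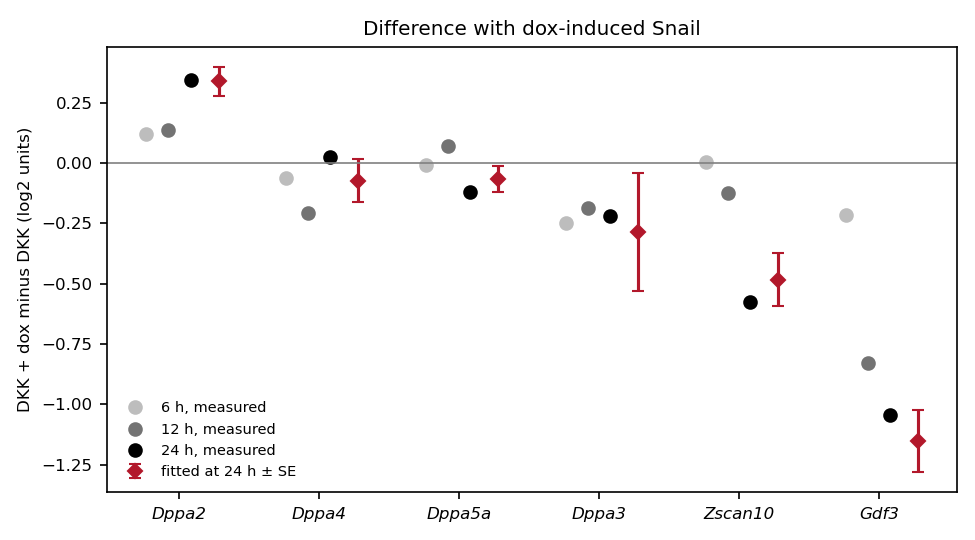
DKK + dox minus DKK for the 6 tested genes (log2 units of intensity + 20.6, the brighter probe set of each): grey to black points are the measured differences at 6, 12 and 24 hours, 1 array against 1, and red diamonds with bars are the fitted values at 24 hours with their SE. Dppa2 lies above 0 at all 3 times, Gdf3 reaches -1.05 at 24 hours, and Zscan10 leaves 0 mainly at 24 hours.

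The members' median with dox at 24 hours was small beside those of the epiblast genes (-0.58) and of the endothelial markers below (1.51). It joins members that went different ways. The median measured difference at 24 hours was -0.17 over the 6 tested members, 0.06 over the 15 other ES cell markers and 0.02 over all genes. Among the other ES cell markers, the nuclear receptor gene Nr0b1 fell by 1.43 and Fgf4 fell as well, the junction gene Jam2 rose by 0.67 and 12 did not pass. Fgf4, the growth factor that drives ESCs out of self-renewal, read 1189, 817 and 433 in DKK against 597, 320 and 126 in DKK + dox, and it fell by 1.92 with dox (SE 0.24, adjusted p = 0.00374 from limma). Of the 10 pluripotency genes shared with the epiblast 5 fell and none rose, Foxd3 by 0.65 (SE 0.14, adjusted p = 0.0235 from limma). Of the 9 epiblast genes 5 fell, none rose, and the claudin Cldn6 had the largest difference, with 655, 1393 and 2049 in DKK against 314, 224 and 360 in DKK + dox.

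Gdf3 signals through receptors and partners that it shares with Nodal. The list of this pathway held such genes together with Nodal itself and inhibitors such as Lefty1. Of its 12 tested genes, 4 rose with dox (Acvr1b, Acvr2a, Smad2 and Lefty1), Nodal fell and 7 did not pass. Acvr2a, a type II receptor, read 234, 334 and 277 in DKK against 251, 426 and 461 in DKK + dox and rose by 0.68 (SE 0.14, adjusted p = 0.0185 from limma). Lefty1, a secreted inhibitor of Nodal, read 5248, 3120 and 1959 in DKK against 5678, 3396 and 2702 in DKK + dox. It fell in DKK by 1.40 (SE 0.06) and rose with dox by 0.42 (SE 0.07, adjusted p = 0.00885 from limma).

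Of the 7 tested receptor genes for osteopontin, the product of Spp1, 2 rose with dox, none fell and 5 did not pass. Itgav, the integrin alpha v chain, read 607, 588 and 618 in DKK against 628, 934 and 1348 in DKK + dox, and rose by 1.09 (SE 0.13, adjusted p = 0.00311 from limma). Cd44 declined in DKK from 290 to 76.6, and its dox difference did not pass (0.45, SE 0.17, adjusted p = 0.128 from limma). The germ cell genes had 1 that rose with dox and 1 that fell, of 12: Ddx4, a germ cell RNA helicase, by 0.68 (SE 0.12, adjusted p = 0.0120 from limma) and Mael, a gene of the piRNA pathway, by -0.57 (SE 0.14, adjusted p = 0.0337 from limma).

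Markers of other cell types moved with the same comparisons. Pecam1 is also an endothelial gene, and of the 12 tested genes of that list 8 rose with dox and none fell. The summed intensity of its 14 measured genes was 873, 619 and 526 in DKK against 867, 1343 and 3095 in DKK + dox. Fli1, an ETS factor of blood and vessels, read 10.6, 58.4 and 20.9 in DKK against 11.1, 206 and 693 in DKK + dox. Sox7, a factor of endothelium and endoderm, read 272, 53.9 and 25.1 in DKK against 276, 54.5 and 356 in DKK + dox. The defining gene Cdh5 (VE-cadherin) was at the lowest value of 1 on the 6 hour DKK array and at 145 on the 24 hour DKK + dox array, while Tie1 and Emcn stayed under the low-signal limit on all 6 arrays, as Pecam1 did.

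Extraembryonic endoderm is a lineage that ESC cultures can hold. Of 16 tested markers, 7 fell in DKK, none rose and 9 did not pass, and with dox 6 rose, none fell and 10 did not pass. The sums over 17 measured genes were 6334, 4490 and 3915 in DKK against 5989, 5240 and 7224 in DKK + dox, with Afp under the limit on all 6 arrays. The 6 that rose were Sox17, Dab2, Sparc, Col4a1, Col4a2 and Pth1r, while Gata4, Gata6, Foxa2 and Hnf4a did not pass with dox. At 24 hours Sparc, Col4a1 and Col4a2 read 1259, 383 and 191 in DKK against 2132, 1184 and 662 in DKK + dox, a large part of the difference in the sums. Cubn, an endocytic receptor of visceral endoderm, had the largest decline in DKK, from 472 to 70.1, and Pth1r, a hormone receptor of parietal endoderm, the largest dox difference at 24 hours, 276 against 32.6. Of 5 tested fibroblast genes 2 fell in DKK, among them the collagen gene Col1a1 by 0.98 (SE 0.29, adjusted p = 0.0460 from limma). None passed with dox, where the proteoglycan gene Dcn had the largest difference at 24 hours, -0.55, and the sums over 7 measured genes were 621, 356 and 404 in DKK against 453, 467 and 417 in DKK + dox. The part of any of these cells in the members' values was not tested.

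Several members lie next to each other in the genome. In the RefSeq order of protein-coding genes (GRCm38.p6), Dppa4 and Dppa2 are neighbours on chromosome 16, between Gm52257, which was not measured here, and Morc1. Gdf3 and Dppa3 are neighbours on chromosome 6, between Apobec1 and Nanog. The neighbours were picked out after their values were seen.

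Morc1, a gene of germ cell chromatin silencing, read 663, 94.0 and 35.2 in DKK against 699, 57.5 and 28.3 in DKK + dox. It fell by 3.62 in DKK (SE 0.20, adjusted p = 6.76e-05 from limma), beside -0.66 for Dppa2 and -0.62 for Dppa4, and its dox difference did not pass (-0.34, adjusted p = 0.373 from limma). Nanog, a core pluripotency factor, read 1832, 1362 and 1791 in DKK against 1711, 706 and 1827 in DKK + dox. Nanog was thus lowest at 12 hours in both conditions, where Dppa3 and Gdf3 continued downwards to 24 hours. Neither its change in DKK (0.16, SE 0.25, adjusted p = 0.667 from limma) nor its dox difference (-0.35, SE 0.28, adjusted p = 0.472 from limma) passed. The glucose transporter gene Slc2a3, beyond Nanog, fell with dox by 0.56 (SE 0.14, adjusted p = 0.0396 from limma), and Apobec1, at 30.5 to 48.3 over the 6 arrays, passed in neither comparison. Differences between neighbours were not tested.

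**Figure D4:**
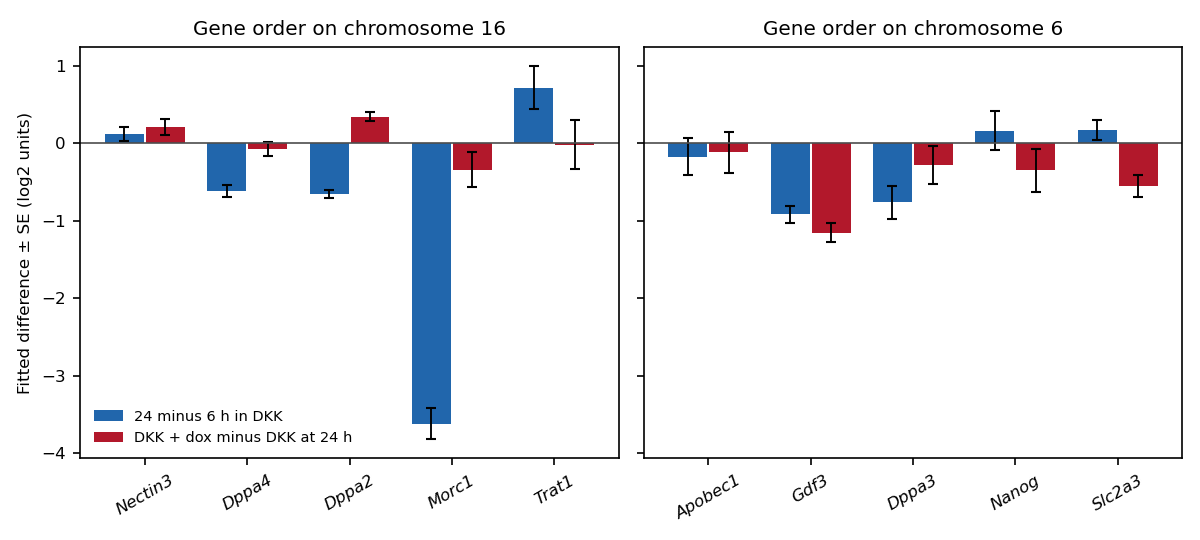
Fitted differences with their SE (log2 units of intensity + 20.6) for tested genes in their order along chromosomes 16 and 6, blue bars for 24 minus 6 hours in DKK and red bars for DKK + dox minus DKK at 24 hours. Morc1 has -3.62 in DKK beside -0.66 for Dppa2, and Gdf3 has -1.15 with dox beside -0.28 for Dppa3 and -0.35 for Nanog.

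Profiles over the 6 arrays were also set side by side, by the root mean square difference between 2 genes' log2 values after each gene was centred on its own mean, where a small value needs a like shape and a like size. This measure describes 6 arrays and carries no test. The offset of 20.6 shrinks the profiles of faint genes such as Dppa3, so their values depend on it. Dppa2 was 0.16 from its partner Dppa4, with 747 of all tested genes nearer to Dppa2, and 0.60 from Gdf3.

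The closest 2 of all tested genes were Cdkn2c and Rdm1 for Dppa2 (both 0.04, against a median of 0.32 over all genes), and Azin2 and Smyd4 for Dppa4 (both 0.04, median 0.32). For Dppa3 they were Amdhd1 and Dkc1 (both 0.05, median 0.40), for Dppa5a Trim6 and Gsta4 (both 0.07, median 0.45), and for Zscan10 Enoph1 and Gpr1 (both 0.05, median 0.29). Gdf3 had no gene as near: Cbr3 at 0.17 and Fmc1 at 0.18 led, against a median of 0.69. Cbr3 read 2885, 2094 and 1931 in DKK against 2440, 1390 and 665 in DKK + dox, so that it shared the low 24 hour DKK + dox array with Gdf3.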

How the data were processed

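Total RNA of A2.snail cultures was labelled and hybridised to 6 Affymetrix MOE430 2.0 arrays. Normalization and modeling were done by the authors in dChip. The deposited table gives linear intensities whose minimum, 1, was held by 2.51 to 3.00% of probe sets per array. No dChip version, model form or genome build was given in the sources used here. Array medians were 53.5 to 63.7, and 37.5 to 41.3% of probe sets were at or under the low-signal limit, which with the number of arrays limits the precision.

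Of 45037 probe sets, the platform annotation gave 1 symbol to 34945, several to 932 and none to 9160. By Entrez ID 34741 matched the RefSeq table of GRCm38.p6, and 0 symbols changed. The probe set of highest mean stood for its gene. Values were taken as log2(intensity + 20.6), the offset being the 25th percentile of all values. Genes with no value over 37.2, the pooled 40th percentile, were left out, which kept 14755 of 18193.

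limma 3.58.1 in R 4.3.3 (lmFit, eBayes with an intensity trend) fitted the time points and a dox term in proportion to hours, with 2 residual and 5.5 prior degrees of freedom. p-values were adjusted by Benjamini-Hochberg over all genes at a threshold of 0.05. The code was tested on simulated data, and the labels give no batch. Differences of 2 arrays were counted at 2-fold. Figures used matplotlib 3.10.9 in Python 3.11.15. The text names the members, Snai1, in each list the gene that differed most with dox at 24 hours and the one that differed most from 6 to 24 hours in DKK, and the 2 genes most like each member; others, among them Hprt, Slc2a3 and further list members, were named after their values were seen. The members, lists, rule and alternatives were chosen with earlier results of these data known. Alternatives covered the offset, filter, normalization, probe set, variance trend, model, fold and left-out times.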

Additional observations from a re-analysis of the deposited data

Results flagged for a closer look

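For 3 of the 6 tested genes the difference between DKK + dox and DKK changed sign between the time points. Over all genes 21.5% were higher with dox at all 3 times and 21.9% were lower at all 3, so most genes did not keep a single sign. Some of the signs below rest on values near 0. Dppa4 had log2 differences of -0.0595 at 6 hours, -0.21 at 12 hours and 0.0239 at 24 hours. Dppa5a had -0.0076, 0.0726 and -0.12, and Zscan10 had 0.00687, -0.12 and -0.58. Each is 1 array against 1, so the difference between the time points was not tested.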

How the results depend on the processing

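Dox calls changed with the model. With no intensity trend or with a dox difference constant over the 3 times, 0 members rose and 0 fell, against 1 and 2. With linear time 0 rose and 1 fell, without the 24 hour pair 0 rose and 1 fell, and without the 6 hour pair 1 fell. Over all genes, 1227 rose and 941 fell as reported, 209 and 76 with no intensity trend, 121 and 80 with linear time, 793 and 533 without the 6 hour pair and 229 and 499 without the 24 hour pair. The time course in DKK had 0 members that fell with linear time, against 5. Its calls over all genes, 1805 up and 1888 down, became 847 and 961 with no intensity trend and 2644 and 1202 with arrays centred on the median. The decline from 12 to 24 hours had 0 members without the 6 hour pair, a setting chosen after seeing the data. Members at least 2-fold lower at 24 hours with dox numbered 0 with the mean of all probe sets, against 1. From 6 to 24 hours in DKK, 5 were lower at 1.5-fold and 1 with offset 1, against 0, and in DKK + dox 4 at 1.5-fold and 1 with median centring, against 2. Fitted values near 0 changed sign: Dppa4 with dox to 0.00852 without the 12 hour pair, Dppa5a with dox to 0.11 without the 24 hour pair, and Zscan10 in DKK to -0.00172 with quantile normalization and -0.17 with a constant dox difference. The cause was not tested. Over single genes and settings 137 values kept their direction and their side of the threshold, 19 lost the call and 4 changed sign. With a filter at the 60th percentile Dppa3 was not tested, and without the 6 or 24 hour pair there is no change from 6 to 24 hours. The DKK and DKK + dox arrays of a time point are matched in the reported fit, which holds the time points as a block, and the labels carry no replicate numbers for a further one.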
